A study of Mus musculus with 6 samples.

Results

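The 10 genes described here sense oxygen or answer to its lack: the HIF subunits Hif1a, Epas1 and Arnt, the oxygen-sensing hydroxylases Egln1 and Egln2, the ubiquitin ligase subunit Vhl, and the HIF-responsive genes Vegfa, Bnip3, Ddit4 and Cited2. They were chosen by name, as every probe set of the array whose annotation gives one of these symbols and no other. This gave 22 of 45037 probe sets, and 10 of the 18193 genes with such a probe set. In total 15 of the 22 probe sets, covering all 10 genes, exceeded log2 4 on at least 3 of the 6 arrays and were tested. The other 7, with values between 1.91 and 3.83, lay below that level and were not.

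The arrays compare hematopoietic stem cells of male C57Bl/6 (CD45.1) mice aged 10 weeks, sorted from bone marrow in both groups as Lineage-, Sca-1+ and c-Kit+. Lower-SP and Upper-SP cells came from the lower and the upper part of the side population, a flow cytometry gate that holds dye-effluxing cells. The labels name no transgene or treatment for either group, the cells came from 3 pools of mice sorted on different days, and the RNA was amplified by repeated in vitro transcription before labeling. Each group had 3 arrays, and that number limits the precision. In such pooled RNA, fewer cells that make a transcript and less of it per cell cannot be told apart.

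In cells with enough oxygen, EGLN enzymes hydroxylate the HIF alpha subunits on prolines, and VHL, as part of an elongin and cullin ubiquitin ligase, marks them for destruction. When oxygen falls, the alpha subunits persist, pair with ARNT and bind hypoxia response elements, which share a short core, near genes of glycolysis, blood vessel growth and mitophagy. Bone marrow stem cells live in tissue of low oxygen, and HIF-1alpha is known for its part in keeping them quiescent and glycolytic. HIF proteins are controlled mainly through their stability, which an expression array does not measure.

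Values ran close together within a group (array correlations across probe sets 0.952 to 0.991) and less so between groups (0.911 to 0.938). Lower-SP replicates 1 and 2 stood apart from replicate 3 by neutrophil transcripts and by the plasma cell transcripts Igha and Jchain. The 8 tested of 14 listed neutrophil markers averaged 10.4, 9.85 and 6.65 on the Lower-SP arrays of replicates 1, 2 and 3. In Upper-SP they averaged 6.30, 6.58 and 5.26, so replicate 3 was lowest within each group. These averages include Chil3 and Lcn2, whose calls are given no weight below. S100a8 alone read 13.19, 12.60 and 9.16 in Lower-SP and 7.62, 7.87 and 6.95 in Upper-SP. Of the 8, S100a8 and S100a9 were called higher in Lower-SP. Ngp (3.34), Camp (1.80) and Ltf (2.18) had positive differences and did not pass. The granule protease gene Prtn3, at 11.42 to 12.12 on all arrays, was called lower (-0.60, adjusted p = 0.0067). Chil3 and Lcn2 were also called higher, but exceeded log2 4 only on the Lower-SP arrays. They entered the test only through the group where they are high, so their calls are given no weight. Among the untested ones Elane and Ctsg stayed under log2 4 on all arrays, and Mpo, Mmp8 and Mmp9 reached at most 4.25, 4.84 and 4.36. Of 12 listed stem and progenitor markers 10 were tested and 5 were lower in Lower-SP, namely Flt3 (-2.22), a receptor of more committed progenitors, Cd34 (-1.41), Abcg2 (-1.04), the dye pump of the side population, Kit (-0.92) and Tal1 (-0.85). The other 5, Mecom, Procr, Gata2, Slamf1 and Hlf, did not pass. Of other marker symbols, 1 of 10 erythroid, 4 of 10 B and plasma cell and 2 of 9 T and NK cell ones were tested. The B and plasma cell list held Jchain also under its older name Igj. For megakaryocyte markers 6 of 8 were tested, and for endothelial and stromal markers 4 of 10. Klf1, Cd3e, Cdh5 and Pecam1 stayed under log2 4 on all arrays. The tested B and plasma cell markers averaged 4.38 to 6.66 in Lower-SP and 7.09 to 7.64 in Upper-SP, both tested T and NK cell markers, Cd28 and Nkg7, 4.90 to 5.30 and 6.11 to 6.50 (each called lower), the megakaryocyte markers 7.58 to 8.10 and 7.01 to 7.33, and the endothelial and stromal markers 4.87 to 5.80 and 6.08 to 6.57. Of the B and plasma cell markers Igha was called lower (-4.42, adjusted p = 0.024). Igha read 9.40, 8.99 and 4.70 in Lower-SP and 12.43, 12.60 and 11.31 in Upper-SP. Jchain (-1.82), Cd79b (-0.37) and Ms4a1 (0.42) did not pass. For Jchain the values were 5.56, 5.16 and 2.38 in Lower-SP and 6.08, 6.59 and 5.89 in Upper-SP. Of the 6 megakaryocyte markers 4 had positive differences, and Gp1bb and Itgb3 were called higher. Gp1bb exceeded log2 4 only on the Lower-SP arrays, so its call is given no weight, though the megakaryocyte averages above include it. Pf4 (-0.25) and Gp9 (-0.51) differed the other way and did not pass. The part of such cell types in the members' differences was not tested. Fits without Lower-SP replicates 1 and 2 are given below as a description. They leave only Lower-SP replicate 3, which still read S100a8 at 9.16, against 6.95 to 7.87 in Upper-SP.

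The sensing arm and the response arm each held genes that moved in opposite directions. Epas1 and Ddit4 rose in Lower-SP, and Vhl and Bnip3 fell. Arnt, Egln1, Egln2, Cited2 and Hif1a did not pass the test, and Vegfa passed at only 1 of its 2 tested probe sets. Differences are given as the Lower-SP mean less the Upper-SP mean, in log2 units. They were tested with limma (two-sided), with Benjamini-Hochberg adjustment over the 19613 probe sets tested and a threshold of 0.05. Each gene with several tested probe sets is represented by the brightest on average. On that reading 2 of 10 members were higher and 2 lower, or 40% called, where 27.7% of all 9460 tested genes were called (7.05% higher, 20.7% lower). Of the members' 15 probe sets 5 were called, 3 higher and 2 lower, against 28.1% of all tested probe sets. The members' median difference was 0.19, against -0.24 for all tested genes.

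**Figure D1:**
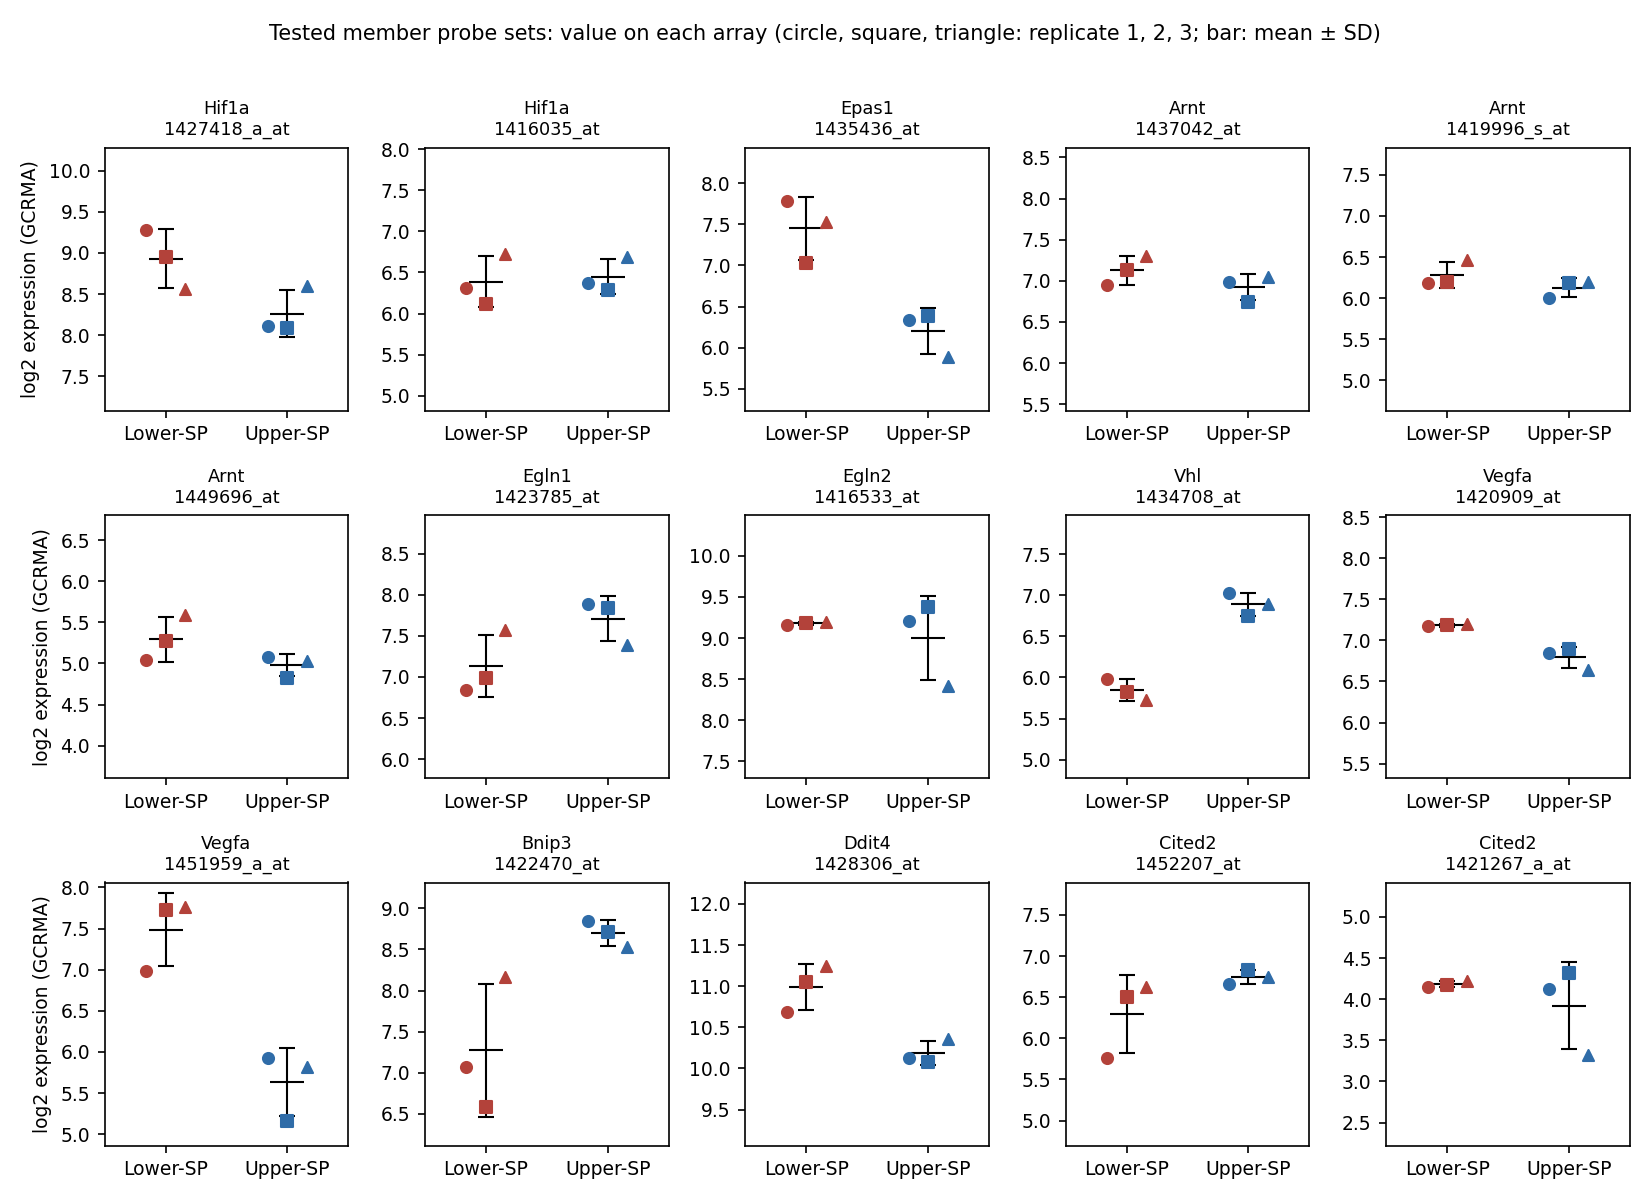
Log2 GCRMA expression (y axis) of the 15 tested member probe sets on the 3 Lower-SP arrays (red) and the 3 Upper-SP arrays (blue), 1 panel per probe set, with every panel spanning the same number of log2 units. Circles, squares and triangles are replicates 1, 2 and 3 and bars are mean ± SD. The groups lie apart for 7 probe sets, of Epas1, Vhl, Ddit4, Bnip3, Vegfa (both) and Cited2 (the brighter), and Bnip3 is spread widest in Lower-SP (SD 0.81).

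Beginning with the alpha subunits, Epas1 encodes HIF-2alpha. Its probe set 1435436_at read 7.79, 7.04 and 7.53 on the Lower-SP arrays of replicates 1, 2 and 3, and 6.33, 6.39 and 5.88 on the Upper-SP arrays. Every Lower-SP array was above every Upper-SP array. Epas1 rose by 1.25 (SE 0.27, 95% interval 0.61 to 1.88, 2.38-fold, adjusted p = 0.015), from 6.20 ± 0.28 to 7.45 ± 0.38 (SD, n = 3). A further Epas1 probe set lay between 1.91 and 1.97 on all arrays and was not tested. Without Upper-SP replicate 1 the Epas1 difference was 1.31 and the adjusted p 0.061.

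Hif1a encodes HIF-1alpha, the alpha subunit found in most cells. At its brightest probe set, 1427418_a_at, it read 9.28, 8.95 and 8.57 in Lower-SP and 8.11, 8.08 and 8.59 in Upper-SP. Both replicates numbered 3 lay close together, and the groups overlapped. The difference of 0.67 (SE 0.24, 95% interval 0.11 to 1.23) did not pass (adjusted p = 0.074). It passed with cyclic loess (0.87, adjusted p = 0.042), without Lower-SP replicate 3 (0.85, adjusted p = 0.028) and when Upper-SP replicate 3 was left out (0.84, adjusted p = 0.046). The other tested probe set of Hif1a, 1416035_at, differed by -0.06 (95% interval -0.64 to 0.52), with an interval that overlaps that of the brighter probe set.

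Arnt encodes HIF-1beta, the constitutive partner of both alpha subunits. Its probe set 1437042_at read 6.95, 7.13 and 7.30 in Lower-SP and 6.99, 6.74 and 7.05 in Upper-SP, with overlapping groups. The difference was 0.20 (SE 0.21, 95% interval -0.29 to 0.69, adjusted p = 0.50). Its other tested probe sets differed by 0.15 and 0.32 and did not pass. The interval excludes a doubling of Arnt in either direction at this probe set.

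Vhl, the substrate-recognition subunit of the ligase that destroys hydroxylated HIF, fell. Its probe set 1434708_at read 5.99, 5.83 and 5.72 in Lower-SP and 7.03, 6.75 and 6.89 in Upper-SP, with no overlap. The replicates of each group lay within an SD of 0.13 (Lower-SP) and 0.14 (Upper-SP), against a difference of -1.04 (SE 0.21, 95% interval -1.54 to -0.55, 2.06-fold, adjusted p = 0.012). The adjusted p was 0.070 without Upper-SP replicate 1, at a difference of -0.97. The Vhl probe set annotated to a RefSeq mRNA lay between 2.41 and 2.45 on all arrays and was not tested.

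Of the prolyl hydroxylases, Egln1 (PHD2) is regarded as the main oxygen sensor. Egln1 read 6.85, 6.99 and 7.57 in Lower-SP and 7.89, 7.83 and 7.39 in Upper-SP. The groups overlapped, since replicate 3 was the highest of the Lower-SP arrays and the lowest of the Upper-SP arrays. Egln1 differed by -0.57 (SE 0.26, 95% interval -1.18 to 0.04, adjusted p = 0.14), and by -0.79 without Lower-SP replicate 3 (adjusted p = 0.038). Egln2 (PHD1), a further prolyl hydroxylase, read 9.16, 9.19 and 9.20 in Lower-SP and 9.20, 9.37 and 8.42 in Upper-SP. Its difference of 0.18 (95% interval -0.40 to 0.77, adjusted p = 0.62) turned to -0.11 when Upper-SP replicate 3 was left out.

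Bnip3, a mitochondrial receptor for mitophagy and a classical HIF-1 target, and Ddit4 (REDD1), an inhibitor of mTORC1 induced by hypoxia and other stress, moved in opposite directions. Their upstream sequences are shown because they are the HIF-responsive members called at their brightest probe set, so that the letters can be set beside the opposite movement. Each is the 250 bases before the gene start, from RefSeq (GRCm38.p6), on the minus strand at chr7:138909507-138909756 for Bnip3 and chr10:59951771-59952020 for Ddit4. Capitals mark ACGTG and GCGTG, the core of the hypoxia response element, on either strand (CACGT and CACGC when read here).
Bnip3: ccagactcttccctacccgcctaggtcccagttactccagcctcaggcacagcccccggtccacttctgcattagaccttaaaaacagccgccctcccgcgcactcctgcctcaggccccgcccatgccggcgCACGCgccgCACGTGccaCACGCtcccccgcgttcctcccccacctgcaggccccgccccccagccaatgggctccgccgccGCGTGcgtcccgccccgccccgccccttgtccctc
Ddit4: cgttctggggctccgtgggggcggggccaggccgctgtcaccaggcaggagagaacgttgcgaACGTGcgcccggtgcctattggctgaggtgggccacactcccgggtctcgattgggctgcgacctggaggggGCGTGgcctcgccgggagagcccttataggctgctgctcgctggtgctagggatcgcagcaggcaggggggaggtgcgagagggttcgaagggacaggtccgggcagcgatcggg

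The Bnip3 window held 5 matches, 2 of ACGTG and 3 of GCGTG. The ACGTG matches lie on opposite strands and overlap in a palindrome, 107 and 108 bases before the start. The Ddit4 window held 1 ACGTG match, 187 bases before the start, and 1 GCGTG match, 115 bases before it. Among the 9 members with a RefSeq promoter, 8 held at least 1 match in at least 1 window, against 41.5% of all 27025 genes with one. The share was 76.7% among the 73 tested genes of the related lists with a window, and 74% among those not called. Epas1 had no window in the sources used here. Vhl held none in its window. Hif1a held 3 ACGTG matches, Cited2 2, Egln1 1 of each kind, Arnt 1 GCGTG, and Egln2 4 matches in the first of its 2 windows and 1 in the other. The Hif1a matches 134 and 135 bases before the start overlap in a palindrome, as do the Cited2 matches at 152 and 153 bases. Vegfa held 2 matches in 1 of its 2 windows. Matches stood in front of genes that rose, fell and did not pass. A match is a stretch of letters and says nothing of binding.

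Bnip3 read 7.07, 6.58 and 8.16 in Lower-SP and 8.85, 8.72 and 8.53 in Upper-SP. All Lower-SP arrays were below all Upper-SP arrays, but Lower-SP replicate 3 lay nearer to Upper-SP than to its own group. Bnip3 fell by 1.42 (SE 0.38, 95% interval -2.30 to -0.55, 2.68-fold, adjusted p = 0.028), from 8.70 ± 0.16 to 7.27 ± 0.81. The call was lost without any single array other than Lower-SP replicate 3: the differences were -1.32 and -1.08 without Lower-SP replicates 1 and 2, and -1.35, -1.42 and -1.51 without Upper-SP replicates 1, 2 and 3 (adjusted p = 0.054 to 0.11). Without Lower-SP replicate 3 it was -1.87 (adjusted p = 0.0032).

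Bnip3 was lowest on Lower-SP replicates 1 and 2, the arrays with the high neutrophil transcripts. S100a8 read 13.19 and 12.60 there, against 9.16 on Lower-SP replicate 3. Igha and Jchain were also higher there than on Lower-SP replicate 3. The part of such cell types in the Bnip3 difference was not tested. With Lower-SP replicates 1 and 2 both left out, Bnip3 differed by -0.53, in a fit where Lower-SP replicate 3 stands alone and is taken to vary like the Upper-SP arrays. In that fit Ddit4 differed by 1.06, Vhl by -1.17, Vegfa at 1451959_a_at by 2.13 and Epas1 by 1.32.

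Ddit4 read 10.69, 11.05 and 11.24 in Lower-SP and 10.12, 10.08 and 10.36 in Upper-SP, with no overlap. It rose by 0.81 (SE 0.17, 95% interval 0.41 to 1.21, 1.75-fold, adjusted p = 0.014). The call was lost narrowly without Lower-SP replicate 2 (0.78, adjusted p = 0.052), Upper-SP replicate 1 (0.77, 0.069) or Upper-SP replicate 2 (0.75, 0.055).

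Vegfa, the angiogenic growth factor that is among the best known HIF targets, gave unequal readings. Probe set 1451959_a_at read 6.98, 7.72 and 7.76 in Lower-SP and 5.92, 5.16 and 5.81 in Upper-SP, and rose by 1.85 (SE 0.32, 95% interval 1.12 to 2.59, 3.62-fold, adjusted p = 0.0068), the largest difference of the 15. It was called with each single array left out in turn. The brighter probe set 1420909_at, through which the gene was counted, read 7.17, 7.18 and 7.20 against 6.84, 6.89 and 6.65. These groups did not overlap either, but the difference of 0.39 (SE 0.20, 95% interval -0.06 to 0.85) did not pass (adjusted p = 0.17). The probe sets thus shared a direction and differed in size, their intervals not overlapping. Read as the mean of both probe sets, Vegfa rose by 1.12 (adjusted p = 0.0093).

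Cited2, a HIF-induced protein that competes with HIF-1alpha for the coactivators p300 and CBP and is needed for stem cell maintenance, did not pass. Its brighter probe set read 5.76, 6.51 and 6.63 in Lower-SP and 6.67, 6.83 and 6.74 in Upper-SP. Although all Lower-SP arrays lay below all Upper-SP arrays, the difference of -0.45 (SE 0.28, adjusted p = 0.26) rested on Lower-SP replicate 1 and was -0.18 without it. The dimmer probe set differed by 0.26 (adjusted p = 0.51), near the lowest level tested. In 6 of the 10 members, by the brightest probe set, the groups did not overlap (3 with Lower-SP above, 3 below), beside 45.7% of all tested genes. Over the 15 probe sets this held for 7 (4 above, 3 below), beside 46.1% of all tested probe sets.

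**Figure D2:**
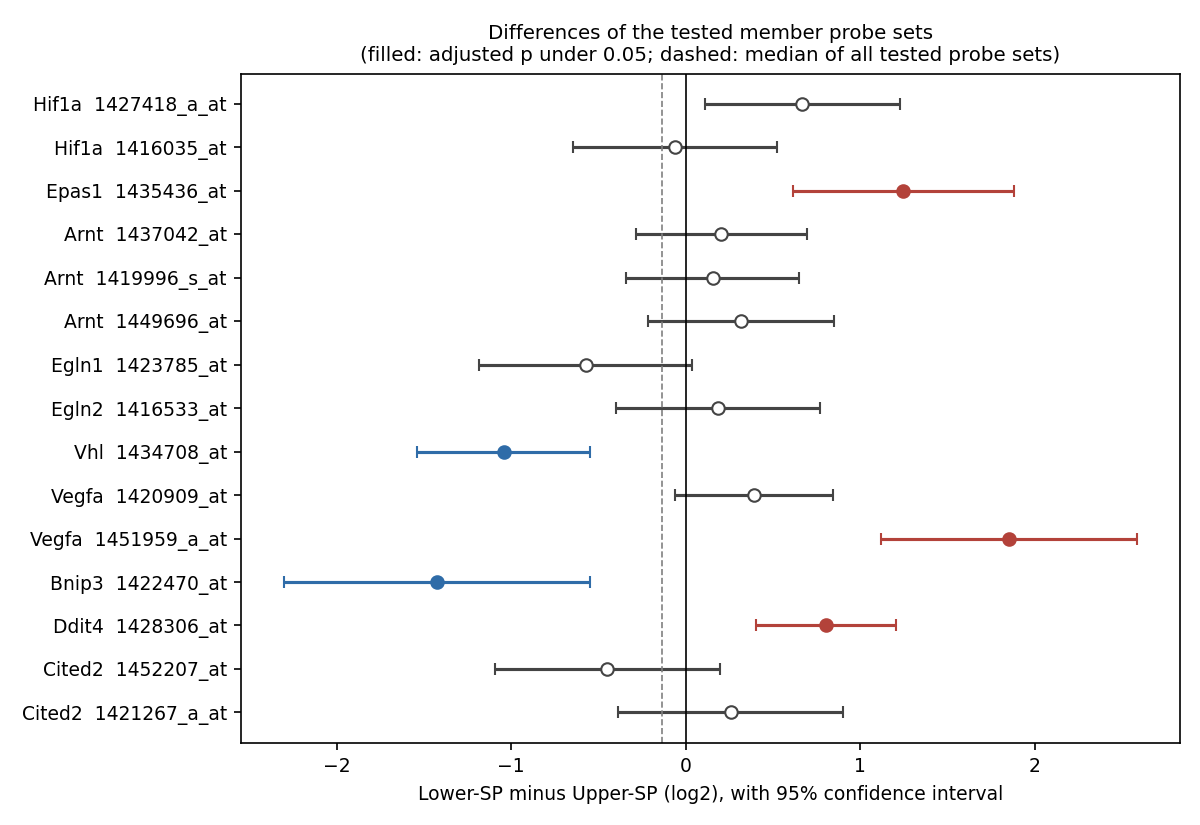
Difference between Lower-SP and Upper-SP (x axis, log2) with its 95% confidence interval for the 15 tested member probe sets. Filled points passed (adjusted p under 0.05, limma), red for higher and blue for lower in Lower-SP, and the dashed line is the median of all tested probe sets (-0.14). The 3 points filled red are Epas1 (1.25), Vegfa at 1451959_a_at (1.85) and Ddit4 (0.81), and the 2 filled blue are Vhl (-1.04) and Bnip3 (-1.42).

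Scaling between the arrays moved the median of all genes, from -0.24 as deposited to -0.15 with quantile normalization, -0.15 with median centring and -0.09 with cyclic loess. The share of called genes that were higher went from 25.4% to 42.5% with cyclic loess. Epas1, Vhl, Bnip3 and Ddit4 were called in the same direction under all of these scalings, with Vhl between -1.04 and -0.92 and Epas1 between 1.25 and 1.39. Leaving out Upper-SP replicate 1 had the strongest effect of any single array: 0 of 10 member genes passed limma's adjusted test (4 had an unadjusted p under 0.05), as 7.35% of all genes did, and only Vegfa at 1451959_a_at was called among the members' probe sets (2.00, adjusted p = 0.033). Called members numbered 3 after Lower-SP replicate 1 was dropped, 2 after Lower-SP replicate 2 and 2 after Upper-SP replicate 2. Of all genes 17.9%, 14.9% and 12.5% were called in these fits. Dropping Lower-SP replicate 3 gave 6 called members and dropping Upper-SP replicate 3 gave 4, beside 32.6% and 29.8% of all genes. The signs of the 4 called members did not change in these fits.

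**Figure D3:**
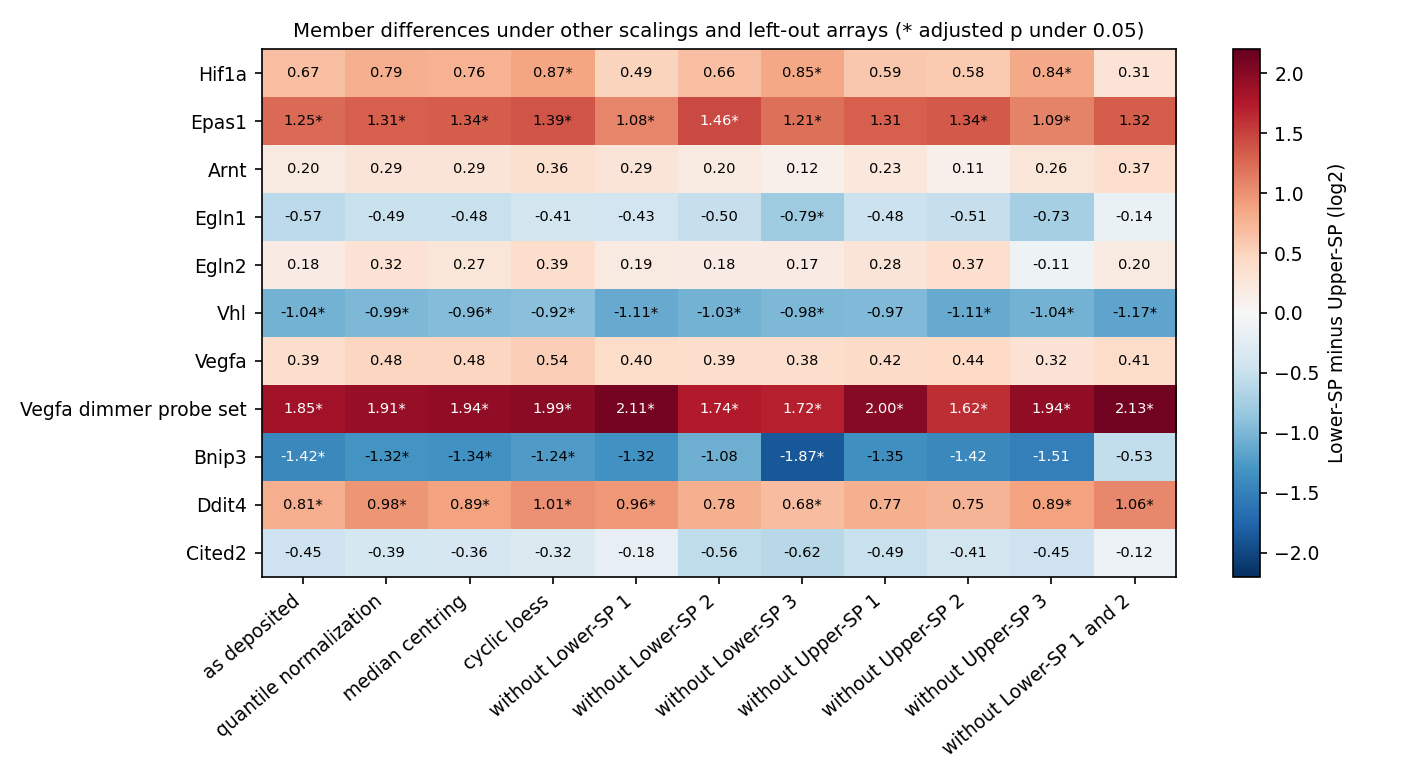
Log2 difference, Lower-SP minus Upper-SP, of each member (rows) as deposited, under 3 other scalings and with arrays left out (columns), in color and as printed, with an asterisk for an adjusted p under 0.05 (limma). The dimmer Vegfa probe set carries the asterisk in every column, Bnip3 loses it in 6 of 11, and the sign changes only for Egln2, to -0.11 without Upper-SP replicate 3.

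The other genes of the pathway were read from lists of 134 further gene symbols, some of them older and newer names of the same gene. Of the 134, 117 were the single symbol of a probe set and 87 were tested. Of these 13 were higher and 15 lower, or 32.2%, beside the 27.7% of all genes. With cyclic loess 18 were higher and 11 lower, where 23.9% of all genes were called. Of the 22 genes of these lists that are named here as higher or lower, 7 were called with each single array left out in turn (Aldoa, Angpt1, Eloc, Hk2, Rictor, Txnip and Vegfc). Of the 22 calls, 14 ended when Upper-SP replicate 1 was dropped and 13 when Upper-SP replicate 2 was. The corresponding numbers were 9 and 11 for the first and the second Lower-SP array. Leaving out the third array of Upper-SP ended 1 call, that of Vldlr. The list medians ran from -0.67 for glycolytic targets to 0.81 for the bHLH-PAS partners, which had only 3 tested genes.

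Among partners and regulators of HIF, the clock factor Arntl (BMAL1), a relative of Arnt, rose by 1.61 (SE 0.42, adjusted p = 0.025), reading 7.25, 7.89 and 6.36 against 5.80, 5.05 and 5.83, while its dimmer probe set differed by 0.26 and did not pass. The dioxin receptor Ahr differed by 0.81 (adjusted p = 0.094). Of 10 tested coactivators and regulators 2 were higher, and limma's adjusted test called 0 lower (20% called, beside 27.7% of all genes). At an unadjusted p under 0.05 the coactivators Ncoa1 (-0.41) and Ncoa2 (-0.67) had negative differences, and Crebbp (CBP, 0.41) and Ep300 (p300, 0.59) positive ones. Cited4, a relative of Cited2, rose by 1.24 (SE 0.28, adjusted p = 0.016), and the chaperone gene Hsp90aa1, whose product stabilizes HIF-1alpha, rose by 0.37 (adjusted p = 0.022). The other probe sets of Hsp90aa1 differed by 0.08 and 0.41 and did not pass, nor did their mean with the brightest (0.29, adjusted p = 0.078) or the brightest without the variance trend (adjusted p = 0.12). Meis1, a transcription factor that activates Hif1a in stem cells, read 12.79 ± 0.14 against 12.56 ± 0.07 and did not pass (0.23, adjusted p = 0.14).

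Egln3 (PHD3), a hydroxylase that is itself a HIF target, fell. Its brighter probe set read 7.34, 6.98 and 7.50 in Lower-SP and 8.36, 8.53 and 8.04 in Upper-SP, a difference of -1.04 (SE 0.23, adjusted p = 0.015). A dimmer Egln3 probe set differed by -0.08 and did not pass. Siah1a, a ubiquitin ligase for EGLN proteins, rose by 0.69 (SE 0.18, adjusted p = 0.028), while its dimmer probe set differed by 0.34 and did not pass. Of the 6 tested genes of this list 1 was higher and 1 lower, or 33.3%, beside 27.7% of all genes. Hif1an, the asparaginyl hydroxylase FIH, differed by -0.31 (adjusted p = 0.33).

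At the brightest probe sets all 6 tested genes of the VHL ligase list had positive differences, and 1 passed (16.7%, beside 27.7% of all genes). Read through the probe set of largest variance, 1 was higher and 2 lower, and by the mean of a gene's probe sets 1 was higher (Usp33) and 1 lower. The gene that passed at its brightest probe set was Eloc (elongin C). It rose by 1.05 (SE 0.16, adjusted p = 0.0049), at 10.04, 10.02 and 10.42 against 9.10, 9.12 and 9.09. Its other probe sets differed by -0.60 and -0.11 and did not pass, and the mean over its probe sets was 0.12. Cul2, the scaffold of the ligase, differed by 0.54 (adjusted p = 0.17), Elob (elongin B) by 0.09 and Rbx1 by 0.31. The deubiquitinase gene Usp33 differed by 0.63 (adjusted p = 0.062), and passed in the fit to the means of probe sets (adjusted p = 0.0395).

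Among glycolytic HIF targets 8 of 19 tested genes fell and 1 rose (47.4% called, 42.1% lower). Of all genes 27.7% were called and 20.7% were lower. Only 2 of the 19 had a positive difference, and the median was -0.67 where that of all genes was -0.24. Hk2, the hexokinase that traps glucose, read 8.87, 8.71 and 9.10 in Lower-SP and 10.17, 10.35 and 9.89 in Upper-SP. It fell by 1.24 (SE 0.18, 2.37-fold, adjusted p = 0.0044). The phosphoglucomutase Pgm1 fell by 1.27 (adjusted p = 0.018) and the aldolase Aldoa by 0.93 (adjusted p = 0.0050). The other probe sets of Aldoa differed by -1.02, -0.88 and -1.15 (each called) and by 0.008 (not passing). The pyruvate kinase Pkm fell by 0.88 (adjusted p = 0.028) and was not called with cyclic loess (-0.67). The exception was the glucose transporter Slc2a1, named after its value was seen, which rose by 0.78 (SE 0.15, adjusted p = 0.0097), at 10.04, 10.12 and 10.32 against 9.30, 9.31 and 9.53. The mean over the probe sets of Slc2a1 was 0.43 and did not pass (adjusted p = 0.19). With cyclic loess 4 of the 19 were lower and 1 higher (median -0.45), beside 23.9% of all genes called and a median of -0.09. When Upper-SP replicate 1, Upper-SP replicate 2 or Lower-SP replicate 2 was left out 2 were lower (7.35%, 12.5% and 14.9% of all genes called). Without Lower-SP replicate 1 it was 3 (17.9% of all genes called). Without Lower-SP replicates 1 and 2 together the median was -0.47, beside -0.16 for all genes.

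**Figure D4:**
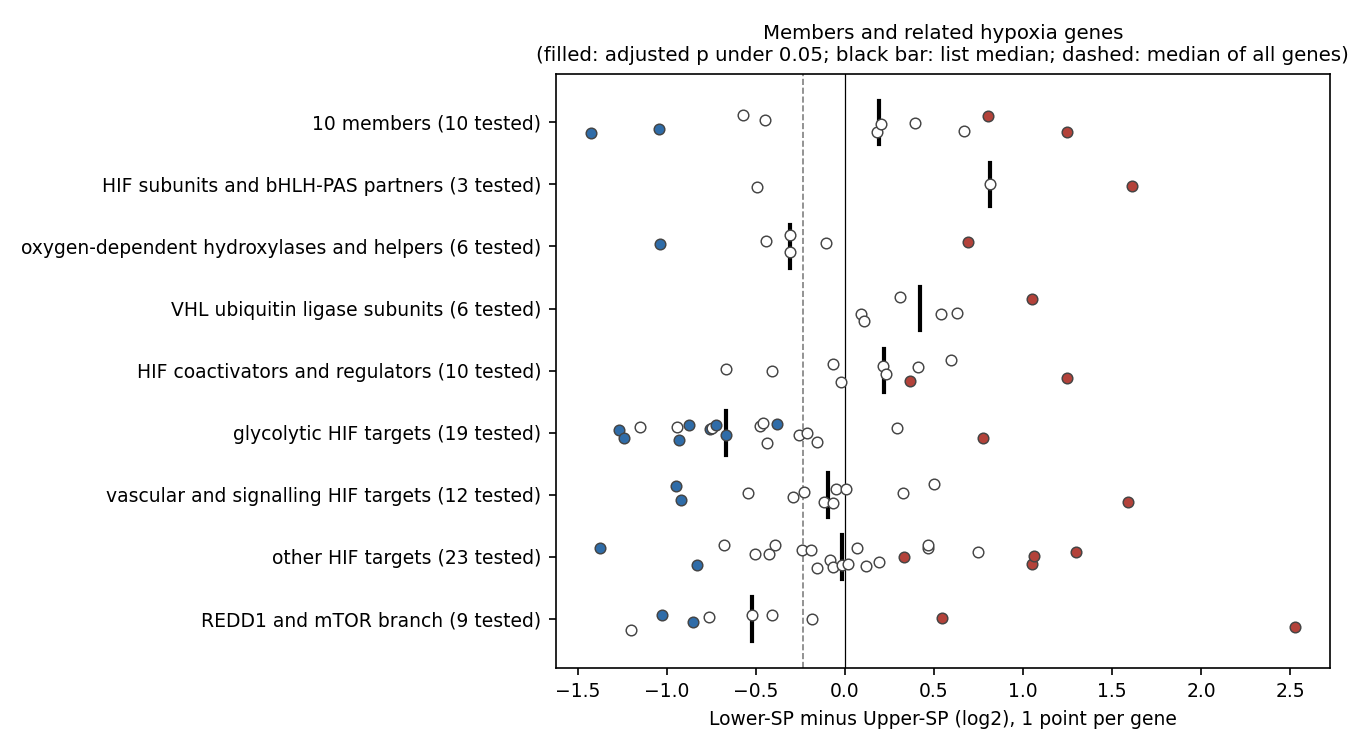
Log2 difference, Lower-SP minus Upper-SP (x axis), of each tested gene of the 10 members and of 8 related lists (rows), 1 point per gene. Filled points passed (adjusted p under 0.05, limma), black bars are list medians and the dashed line is the median of all genes (-0.24). The glycolytic targets lie lowest (median -0.67, 8 lower and 1 higher), and the members spread from -1.42 to 1.25.

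Vascular and signaling targets had 1 higher and 2 lower of 12 tested, or 25%, beside 27.7% of all genes. Angpt1, the ligand of the stem cell receptor TIE2, fell by 0.92 (SE 0.12, adjusted p = 0.0033), at 9.80, 9.91 and 9.92 against 10.76, 10.81 and 10.81. Of the relatives of Vegfa, Vegfc, a lymphatic growth factor, rose by 1.59 (SE 0.28, adjusted p = 0.0077) with 1.19 (called) and 0.67 (not passing) at its other probe sets, and Vegfb fell by 0.95 (SE 0.24, adjusted p = 0.024). The chemokine receptor Cxcr4 differed by 0.33 (adjusted p = 0.37).

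Of 23 other tested targets 4 were higher and 2 lower, or 26.1%, beside 27.7% of all genes. Car9, a carbonic anhydrase used as a hypoxia marker, read 5.92, 5.62 and 6.92 in Lower-SP and 7.71, 7.64 and 7.24 in Upper-SP. It fell by 1.37 (SE 0.36, adjusted p = 0.026), and its Lower-SP arrays stood in the same order as those of Bnip3, with replicate 3 nearest to Upper-SP. Without Lower-SP replicates 1 and 2, Car9 differed by -0.61 and did not pass. Insig2, which holds back sterol synthesis, rose by 1.06 (adjusted p = 0.015, with 0.32 and 0.92 not passing elsewhere). The lipoprotein receptor Vldlr rose by 1.05 (adjusted p = 0.021) at 1 of 5 tested probe sets. The fourth higher gene, Lox, a collagen cross-linker, exceeded log2 4 only on the Lower-SP arrays (4.48, 4.11 and 4.27), so it entered the test only through the group where it is high (adjusted p = 0.021). With values under 4 set to 4 Lox differed by 0.29 and did not pass (adjusted p = 0.20), and a filter on the mean left it untested.

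In the list of the REDD1 and mTOR branch, 2 of 9 tested genes were higher and 2 lower, or 44.4%, beside 27.7% of all genes. Rictor, the defining subunit of mTORC2, rose by 2.53 (SE 0.23, adjusted p = 0.0012), at 10.11, 9.84 and 10.39 against 7.74, 7.80 and 7.21, with 2.24 (called) and 0.39 (not passing) at its other probe sets. Rptor, the defining subunit of mTORC1, fell by 0.86 at its brightest probe set (SE 0.21, adjusted p = 0.023), while a dimmer probe set read 6.00, 5.74 and 7.06 in Lower-SP and under 4 on all Upper-SP arrays. That probe set entered the test only through the group where it is high, and its call is given no weight. Txnip, a thioredoxin-binding inhibitor of glucose uptake, fell by 1.03 (adjusted p = 0.0077). Eif4ebp1, a translation repressor controlled by mTORC1, rose by 0.54 (adjusted p = 0.018), with 0.08 and 0.39 not passing at other probe sets.

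The profiles nearest to those of the 4 called members were sought among 9459 other tested genes, as the smallest root mean square distance over the 6 arrays after each gene's mean was subtracted. They were Rbsn (distance 0.13) and Bcorl1 (0.16) for Epas1, Plcg1 (0.081) and Ints1 (0.093) for Vhl, Fam234a (0.088) and Slc38a6 (0.094) for Bnip3, and Grk3 (0.064) and Npepps (0.094) for Ddit4. Such distances include the difference between the groups and are given as a description.

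The members' probe sets were also divided by their annotation. Of the 4 tested member probe sets annotated to a RefSeq mRNA, 1 was called, lower (Bnip3), or 25%, beside 30% of all such probe sets (3.61% higher, 26.4% lower). Of the other 11, 3 were higher and 1 lower, or 36.4%, beside 26.7% (9.94% higher, 16.7% lower). These shares lie near the background. Over the whole array the corresponding medians of single-symbol probe sets were -0.38 and -0.13.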

How the data were processed

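RNA from sorted mouse stem cells was measured on 6 Affymetrix arrays, 3 per group. The deposited values are log2 expression per probe set, made by the authors with GCOS 1.0 and GCRMA, per the submitters' processing notes. GCRMA corrects background by probe sequence, which can compress differences between dim values. No genome build is given in the sources used here.

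Of 45101 rows 64 were controls and were dropped. Symbols came from the array annotation supplied: 34945 probe sets had 1 symbol, 932 several and 9160 none. All 22 member probe sets matched a current RefSeq record by Entrez ID. Probe sets above log2 4 on at least 3 arrays were fitted together in R 4.3.3 with limma 3.58.1 (lmFit, eBayes with a trend, residual df 4, prior df 3.80), without a replicate block. The fit was tested on simulated data. Called means an adjusted p under 0.05.

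Members and lists were chosen with earlier results of these data known. Named from each related list were up to 4 called genes with the largest difference or, with fewer than 2 called, the 2 smallest p. For each called member the 2 nearest profiles were named. Slc2a1, Hif1an, Cul2, Elob, Rbx1, Ncoa1, Ncoa2, Crebbp, Ep300, Meis1, Cxcr4 and the cell type markers are named outside this rule, after their values were seen. Alternatives covered filters, floors, variance models, scalings, array weights, other representatives of a gene, the block and left-out arrays. Those that left out pairs of arrays were chosen after seeing the data.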

Additional observations from a re-analysis of the deposited data

How the results depend on the processing

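With each array left out in turn, called probe sets ranged from 1666 to 6397 (5520 with all arrays), called member probe sets from 1 to 7, called member genes from 0 to 6 and called related genes from 8 to 32. With no filter 2931 probe sets and 15 related genes were called, and with array weights 10728 and 51. Without Lower-SP replicates 1 and 2 together, 2715 probe sets, 3 member probe sets, 2 member genes and 8 related genes were called. Without both arrays of number 1, limma called 0 probe sets (4667 had an unadjusted p under 0.05, among them 4 member probe sets), and so 0 members and 0 related genes. Without both of number 2 it called 202, with 0 member probe sets, 0 member genes (5 and 4 at an unadjusted p under 0.05) and 1 related gene. Without both of number 3 it called 8331 and 43 related genes. Fits with 4 arrays have fewer degrees of freedom.

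Egln2 turned negative with array weights (-0.013), without Upper-SP replicate 3 (-0.11, where leaving out single arrays gave -0.11 to 0.37) and without both arrays of number 3 (-0.12). Rptor turned positive when read through its probe set of largest variance (3.13), which exceeds log2 4 only in Lower-SP, or the mean of its probe sets (1.13). The cause was not tested. Arrays of the same number did not deviate together (r = -0.05 to -0.02 across probe sets), and 0 of 6 arrays correlated best with their own number. Taken across all tested probe sets with 3 arrays per group, this cannot decide whether pools were shared. Replicate 3 was lowest within each group for the neutrophil and the B and plasma cell averages, but not for the megakaryocyte average. With the replicate block 4180 probe sets, 4 member probe sets, 3 member genes and 20 related genes were called, and Bnip3 was not (-1.42, adjusted p = 0.051). The labels do not say whether equal numbers mark the same pool and day. Over 35 single genes or probe sets, 834 refits gave 5 changes of sign. Signal near background limits what the 7 untested member probe sets can show.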
